A study of Mus musculus with 6 samples.

Results

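The pathway that takes up hexoses, splits them to pyruvate and releases lactate was followed through 30 mouse genes in inguinal white adipose tissue, the subcutaneous fat depot of the groin. The genes were listed by symbol and found in the deposited count table by their Entrez gene IDs, 30 of 24415 IDs. They comprise 3 hexose carriers, 3 hexokinases, glucose phosphate isomerase, 3 phosphofructokinases, 4 bifunctional enzymes that set fructose 2,6-bisphosphate, 2 fructose bisphosphatases, 2 aldolases, 4 enzymes of the triose steps, 2 enolases, 2 pyruvate kinases, 2 lactate dehydrogenase subunits and 2 monocarboxylate carriers. RNA was sequenced from 6 mice aged 12 weeks in a C57BL/6 background that had not been fasted. WT mice gave 3 libraries and mice labelled Hsp20 KO gave the other 3, 1 library per mouse. Hsp20 is a small heat shock protein encoded by Hspb6, and how the knockout allele was built was not given in the sources used here.

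Glycolysis phosphorylates glucose, splits it into triose phosphates and oxidises these to pyruvate, with a small yield of ATP. In fat cells it also feeds the glycerol 3-phosphate backbone of triglycerides and, through pyruvate, the acetyl-CoA for fatty acid synthesis, and white adipose tissue releases lactate after feeding. Several steps are served by isozymes from separate genes, which differ in regulation and in the tissues that express them.

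Library totals ran from 14078936 to 32648746 counts. Values are given as CPM, read counts scaled to a common library total by TMM, and a gene was called when its Benjamini-Hochberg adjusted p over all 15994 tested genes was under 0.05 in edgeR's quasi-likelihood test. Hspb6 had 12.6, 9.43 and 8.95 CPM in WT replicates 1 to 3 and 8.86, 1.51 and 3.94 CPM in the 3 libraries labelled Hsp20 KO. By this gene, replicate 1 of the latter went against its label, with nearly as much Hspb6 as WT, and Hspb6 was not called (log2 change -1.08 ± 0.51 SE, adjusted p = 0.227 by edgeR's test). For that reason the second group is written as the KO-labelled libraries throughout, and every direction below is KO-labelled against WT. The 12 adipocyte markers, Adipoq and Plin1 among them, were counted in every library and summed to between 21360 and 34850 CPM. In bulk tissue fewer cells of a type and less RNA per cell cannot be told apart.

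Genes of the pathway were mostly higher in the KO-labelled libraries. Slc2a5, Hk2, Gpi1, Pfkl, Fbp2, Aldoa, Gapdh, Pgk1, Eno1 and Pkm rose, 10 of the 28 tested (35.7%), where 4.23% of all tested genes were called higher. None of the 28 was called lower by edgeR's quasi-likelihood test, where 3.42% of all tested genes were called lower. At an unadjusted p under 0.05 that test had 1 lower gene, Slc16a3, which DESeq2 called and limma-voom did not. Of the 10 called genes 6 rose at least 2-fold. The median log2 change of the 28 genes was 0.45, with 21 above 0, against a median of 0.000615 and 8010 of 15994 above 0 over all tested genes. Fbp1 and Pklr, the isozymes of liver, did not pass the filter on low counts, with 0 to 6 and 0 to 3 counts per library, and are left out of these counts.

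Together the 30 genes held 5484, 4940 and 4974 CPM in WT replicates 1 to 3 and 7276, 9651 and 10980 CPM in the KO-labelled libraries 1 to 3. The sum was higher in each KO-labelled library than in any WT library, and it was lowest among the KO-labelled libraries in replicate 1. All KO-labelled libraries lay above all WT libraries for 14 of the 28 genes (against 16.9% of all tested genes) and below for 1 (3.57%, against 15.6%), while the groups overlapped for 13. The 14 are the 10 called genes and Tpi1, Pgam1, Ldha and Ldhb. The members were listed with earlier results of these data in view, so these shares describe the list and are no test of it.

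**Figure D1:**
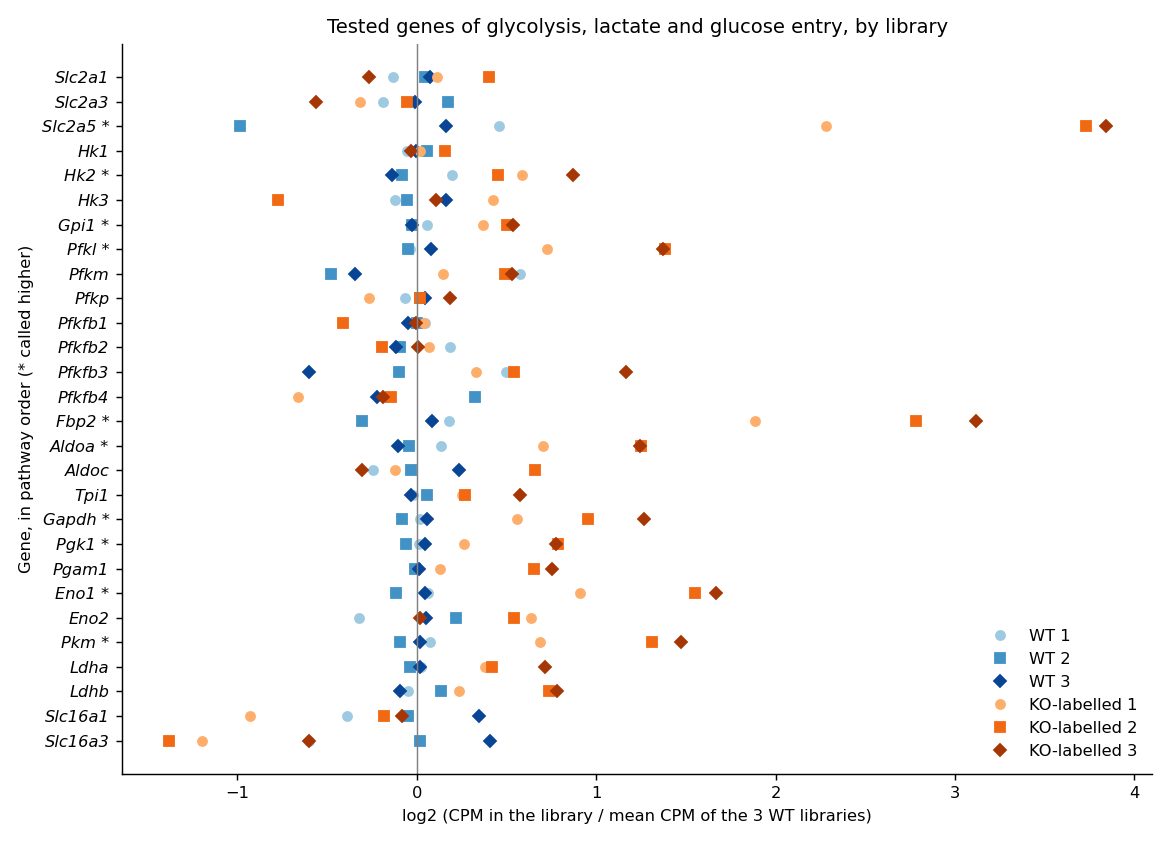
Each row is 1 of the 28 tested genes in pathway order, and each point is the log2 ratio of 1 library's CPM to the WT mean (blue WT, orange KO-labelled, symbols by replicate). Genes with a star are the 10 called higher, and their orange points lie to the right of all blue points, with Slc2a5 and Fbp2 farthest out.

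Among the hexose carriers, Slc2a5, which encodes GLUT5, a carrier selective for fructose, had the largest fold change of the 28 genes. It had 5.78, 2.12 and 4.72 CPM in WT and 20.5, 55.9 and 60.2 CPM in the KO-labelled libraries, from 149, 65 and 156 counts and 566, 1220 and 811 counts. The lowest KO-labelled library, replicate 1, was above the highest WT library, and replicates 2 and 3 were higher again. Mean Slc2a5 rose from 4.21 ± 1.88 to 45.5 ± 21.8 CPM (SD, n = 3 each), a 10.8-fold increase (log2 change 3.43 ± 0.49 SE, adjusted p = 0.0114 by edgeR's test). Slc2a1, the basal glucose carrier GLUT1, had 24.2, 27.4 and 27.9 CPM in WT and 28.7, 35.0 and 22.1 CPM in the KO-labelled libraries. Slc2a3, the high-affinity glucose carrier GLUT3, had 21.5, 27.7 and 24.4 CPM against 19.7, 23.6 and 16.6 CPM. For both the groups overlapped and neither was called (log2 change 0.11 ± 0.16 and -0.29 ± 0.15, edgeR adjusted p = 0.695 and 0.255). Scaled per kilobase of exon, Slc2a5 made up 8.62 ± 4.18% of the summed level of these 3 carriers in WT. In the KO-labelled libraries it made up 49.0 ± 15.9%, with 32.0%, 51.4% and 63.5% in replicates 1 to 3. Slc2a4, which encodes the carrier GLUT4, is not among these 3 and had a higher level than Slc2a5. Per kilobase, Slc2a4 was at 59.5 CPM against 1.33 for Slc2a5 in WT, and at 77.6 against 14.4 in the KO-labelled libraries.

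The sequence upstream of Slc2a5 is printed because this gene had the largest fold change. It runs 5′ to 3′ on the plus strand at chr4:150119094-150119282 (RefSeq, GRCm38.p6), ends before the first annotated transcript start, and has in capitals the GC box letters GGGCGG where they occur on the opposite strand, as CCGCCC. In the second capital run 2 matches lie side by side.
Slc2a5 upstream: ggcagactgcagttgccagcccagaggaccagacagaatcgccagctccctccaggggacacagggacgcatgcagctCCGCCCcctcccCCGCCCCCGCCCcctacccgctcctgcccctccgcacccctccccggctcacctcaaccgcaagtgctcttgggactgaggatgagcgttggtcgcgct

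Hk2, the insulin-responsive hexokinase of muscle and fat that commits glucose to the cell, had 145, 120 and 115 CPM in WT and 190, 173 and 232 CPM in the KO-labelled libraries. The groups did not overlap, and Hk2 rose 1.57-fold (126.9 ± 16.3 to 198.6 ± 30.1 CPM, SD, n = 3 each, edgeR adjusted p = 0.0332). It was the only called gene of which the library labelled Hsp20 KO replicate 1 was not the lowest of its group. Hk1, the widely expressed hexokinase, lay between 56.3 and 60.6 CPM in WT and between 57.0 and 65.0 CPM in the KO-labelled libraries, and Hk3, found mainly in blood cells, between 7.33 and 16.8 CPM over all 6 libraries. Neither was called (edgeR adjusted p = 0.73 and 0.995). Per kilobase of exon Hk2 was the most abundant of the 3 in every library, with 58.8 ± 3.95% of their sum in WT and 68.4 ± 3.43% in the KO-labelled libraries. Gpi1, which converts glucose 6-phosphate to fructose 6-phosphate, had 265, 251 and 250 CPM in WT and 329, 361 and 371 CPM in the KO-labelled libraries. Its rise was small, 1.39-fold, but the spread within each group was smaller (log2 change 0.47 ± 0.09 SE, edgeR adjusted p = 0.0262).

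At phosphofructokinase, the main control point of glycolysis, only the liver-type subunit was called. Pfkl had 108, 107 and 117 CPM in WT and 183, 288 and 286 CPM in the KO-labelled libraries. No KO-labelled library came near the WT range, and Pfkl rose from 110.5 ± 5.42 to 252 ± 59.9 CPM (2.28-fold, log2 change 1.19 ± 0.17 SE, edgeR adjusted p = 0.0117). Pfkp, the platelet-type subunit, had 96.0, 102 and 103 CPM against 83.3, 101 and 114 CPM (log2 change -0.01 ± 0.12, edgeR adjusted p = 0.956), so its means were level while its groups overlapped. Pfkm, the muscle-type subunit, had 52.1, 25.1 and 27.5 CPM in WT and 38.7, 49.2 and 50.5 CPM in the KO-labelled libraries. WT replicate 1 stood above all the others for Pfkm, and the gene was not called (log2 change 0.40 ± 0.27, edgeR adjusted p = 0.391). The same library held 932 CPM of the 13 skeletal muscle markers, against 112 and 155 CPM in WT replicates 2 and 3 and 86.5 to 131 CPM in the KO-labelled libraries, and none of these markers was at 0 in all libraries. Without WT replicate 1 Pfkm was called higher (log2 change 0.80, edgeR adjusted p = 0.032). The part of muscle RNA in the Pfkm values was not tested.

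The share of Pfkl among the 3 subunits, per kilobase of exon, went from 46.0 ± 3.38% in WT to 63.3 ± 2.81% in the KO-labelled libraries, and that of Pfkp from 36.3 ± 3.32% to 22.0 ± 1.84%. Within each library the log2 ratio of Pfkl to Pfkp counts, which does not depend on library scaling, was 0.07 to 0.18 in WT and 1.14 or more in the KO-labelled libraries. The means were 0.14 ± 0.06 and 1.32 ± 0.18 (SD, n = 3 each), a difference of 1.18, and the groups did not overlap. An exact two-sided permutation test gave p = 0.1, the smallest that 3 against 3 allows, and 0.15 after Benjamini-Hochberg adjustment over 9 isozyme pairs. No pair could therefore pass 0.05 in this design.

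**Figure D2:**
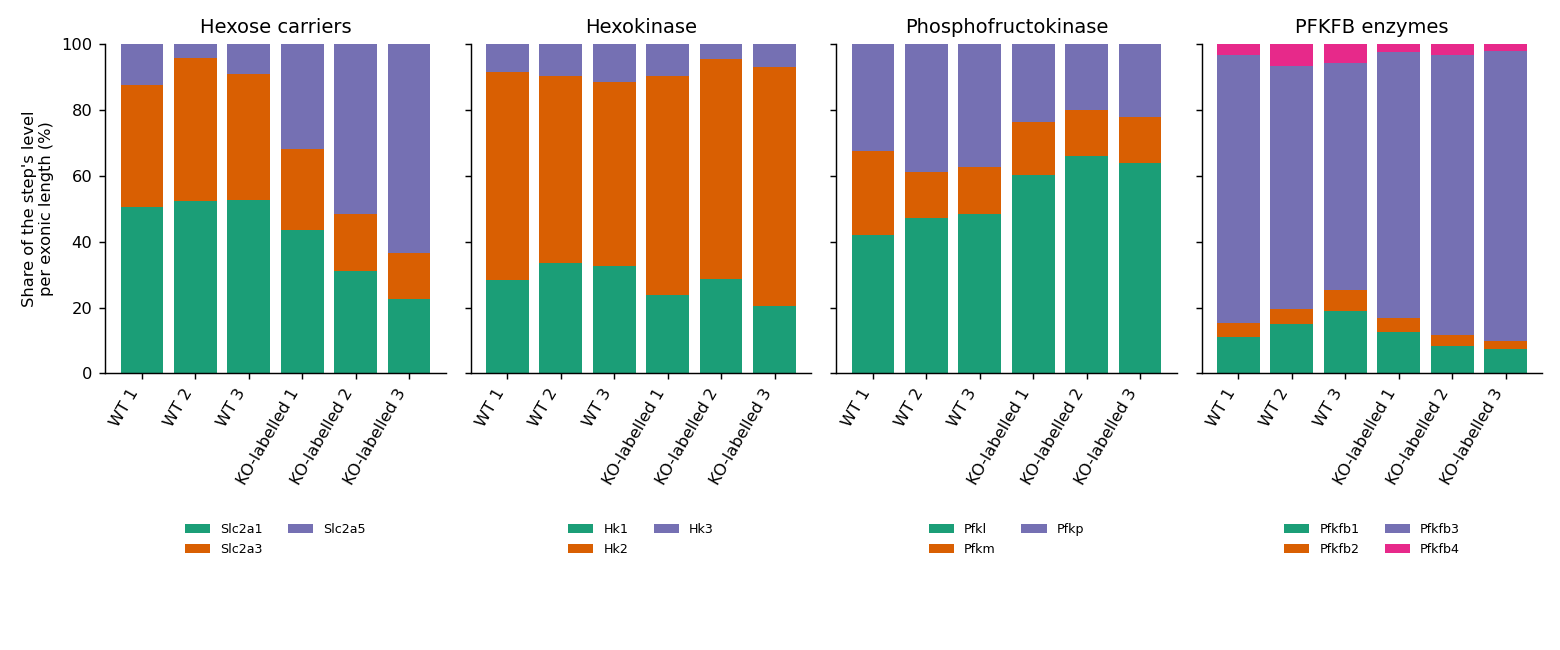
Stacked bars give, for each library, the share (%) of each isozyme in the summed level per exonic length of its step, for hexose carriers, hexokinases, phosphofructokinases and PFKFB enzymes. The hexose carriers shown are Slc2a1, Slc2a3 and Slc2a5, without Slc2a4. Of their sum Slc2a5 takes 4.18% to 12.5% in WT and 32.0% to 63.5% in the KO-labelled libraries. Pfkl takes 42.1% to 48.5% and 60.3% to 65.9% of phosphofructokinase.

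The 4 PFKFB enzymes make and degrade fructose 2,6-bisphosphate, the activator of phosphofructokinase and inhibitor of fructose bisphosphatase. None was called. Pfkfb3, the form with the highest kinase over phosphatase activity, had 690, 456 and 322 CPM in WT and 614, 713 and 1100 CPM in the KO-labelled libraries. Its WT libraries alone spanned more than 2-fold, WT replicate 1 lay above the lowest KO-labelled library, and the log2 change of 0.73 ± 0.31 did not pass (edgeR adjusted p = 0.19). Pfkfb1, Pfkfb2 and Pfkfb4 lay between 12.8 and 35.1 CPM in all libraries, with log2 changes of -0.11, -0.03 and -0.32 (edgeR adjusted p from 0.334 to 0.881).

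Fbp2, the muscle-type fructose bisphosphatase, which runs the phosphofructokinase step in reverse, rose 6.27-fold from a low level. It had 0.776, 0.555 and 0.726 CPM in WT (20, 17 and 24 counts) and 2.53, 4.72 and 5.94 CPM in the KO-labelled libraries (70, 103 and 80 counts). All KO-labelled libraries were above all WT libraries, with replicate 1 the lowest (0.686 ± 0.116 to 4.40 ± 1.73 CPM, SD, n = 3 each, log2 change 2.65 ± 0.35 SE, edgeR adjusted p = 0.00934). Even so, at 3.25 CPM per kilobase of exon in the KO-labelled libraries Fbp2 stayed far below Pfkl at 67.6. Of the 13 skeletal muscle markers edgeR's test called 0 in either direction (with 9 lower and 0 higher at unadjusted p under 0.05, and 0 called by DESeq2 or limma-voom). Their sum was highest in WT replicate 1, where Fbp2 had 0.776 CPM. The part of muscle RNA in the Fbp2 values was not tested.

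The sequence upstream of Fbp2 is printed because it was the only called gene whose promoter window held the E-box CACGTG, the letters bound by MYC, USF and clock factors among others. It runs 5′ to 3′ on the minus strand at chr13:62858423-62858650 (RefSeq, GRCm38.p6), with the E-box in capitals.
Fbp2 upstream: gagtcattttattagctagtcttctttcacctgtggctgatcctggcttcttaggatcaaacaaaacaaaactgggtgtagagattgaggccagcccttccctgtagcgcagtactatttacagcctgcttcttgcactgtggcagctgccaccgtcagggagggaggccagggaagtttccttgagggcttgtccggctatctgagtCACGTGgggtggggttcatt

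Of the 30 genes 29 had a promoter window in the RefSeq table (250 bases before to 50 after the start), all but Slc2a3. CACGTG, searched on both strands, was in the windows of Fbp2, Ldha, Pfkfb2, Pfkfb3, Pfkm and Slc16a1, 6 of 29 genes (20.7%), against 8.09% of 27025 genes and 7.15% of all windows. Its core ACGTG, which is also the core of the hypoxia response element and overlaps every CACGTG, was in 17 of 29 genes (58.6%), against 21.8% of genes and 19.6% of windows, and in 6 of the 10 called genes. The GC box GGGCGG was in 21 of 29 (72.4%), against 38.2% of genes and 35.7% of windows, and in 8 of the 10. Each is a match of letters in this window and a description only.

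Aldolase splits fructose 1,6-bisphosphate into triose phosphates. Aldoa, its main form in fat, had 890, 788 and 755 CPM in WT and 1323, 1928 and 1921 CPM in the KO-labelled libraries. The groups were far apart, and Aldoa rose 2.13-fold (811 ± 70.1 to 1724 ± 347 CPM, log2 change 1.09 ± 0.18 SE, edgeR adjusted p = 0.0167). Aldoc, the brain form, lay between 0.891 and 1.74 CPM in all libraries and was not called (edgeR adjusted p = 0.797). Tpi1, which interconverts the triose phosphates, had 230, 242 and 228 CPM in WT and 278, 280 and 347 CPM in the KO-labelled libraries. Its groups did not overlap, yet the log2 change of 0.37 ± 0.11 did not pass (edgeR adjusted p = 0.0805).

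Gapdh, which oxidises glyceraldehyde 3-phosphate and is often taken as a reference gene, had 718, 670 and 738 CPM in WT and 1043, 1373 and 1708 CPM in the KO-labelled libraries. WT libraries lay within a narrow band and all KO-labelled libraries above it, a 1.94-fold rise (log2 change 0.96 ± 0.18 SE, edgeR adjusted p = 0.0269). Pgk1, the first ATP-forming enzyme of the pathway, had 159, 151 and 162 CPM against 189, 271 and 269 CPM. It rose 1.545-fold (edgeR adjusted p = 0.0414), with the library labelled Hsp20 KO replicate 1 nearer to WT than to replicates 2 and 3. Pgam1, the phosphoglycerate mutase, had 158, 156 and 159 CPM in WT and 172, 248 and 265 CPM in the KO-labelled libraries. The WT libraries were nearly equal, but replicate 1 of the KO-labelled libraries lay close to them and the gene was not called (log2 change 0.53 ± 0.15, edgeR adjusted p = 0.0748).

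Eno1, the ubiquitous enolase, had 507, 447 and 500 CPM in WT and 909, 1418 and 1536 CPM in the KO-labelled libraries. It rose 2.66-fold, from 484 ± 32.7 to 1288 ± 333 CPM (log2 change 1.41 ± 0.20 SE, edgeR adjusted p = 0.0116), which is the largest change among the abundant genes of the pathway. Eno2, the neuronal enolase, lay between 6.17 and 8.97 CPM in WT and between 7.80 and 12.0 CPM in the KO-labelled libraries, and was not called (edgeR adjusted p = 0.226). Pkm, which makes pyruvate in most tissues other than liver, had 498, 443 and 479 CPM in WT and 761, 1174 and 1312 CPM in the KO-labelled libraries. Again no KO-labelled library fell in the WT range, and Pkm rose 2.29-fold (473 ± 27.9 to 1083 ± 287 CPM, log2 change 1.19 ± 0.20 SE, edgeR adjusted p = 0.0178). The counts do not separate the PKM1 and PKM2 splice forms.

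Neither gene of lactate dehydrogenase was called. Ldha, the subunit that favours lactate formation, had 641, 614 and 639 CPM in WT and 822, 843 and 1035 CPM in the KO-labelled libraries. The groups did not overlap, but its log2 change of 0.51 ± 0.13 fell just short of the threshold (edgeR adjusted p = 0.05 after rounding). Ldhb, the subunit that favours lactate oxidation, had 42.8, 48.5 and 41.5 CPM against 52.2, 73.9 and 76.0 CPM, likewise apart and likewise just short (log2 change 0.60 ± 0.15, edgeR adjusted p = 0.0505). Of 15 other settings of the analysis Ldha was called in 9 and Ldhb in 6. The log2 ratio of Ldha to Ldhb differed by -0.08 between the groups (exact permutation p = 0.7), with 3.91, 3.66 and 3.94 in WT and 3.98, 3.51 and 3.77 in the KO-labelled libraries. Ldha made up 90.7 ± 0.913% of the 2 subunits per kilobase of exon in WT and 90.2 ± 1.44% in the KO-labelled libraries.

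Of the monocarboxylate carriers, Slc16a1, the widely expressed MCT1, had 70.1, 88.7 and 117 CPM in WT and 48.2, 80.7 and 86.6 CPM in the KO-labelled libraries. The groups overlapped and it was not called (log2 change -0.36 ± 0.25, edgeR adjusted p = 0.407). Slc16a3, the lactate exporter MCT4 of glycolytic cells, had 2.68, 4.11 and 5.38 CPM in WT and 1.77, 1.56 and 2.67 CPM in the KO-labelled libraries. It was the 1 gene of the pathway with every KO-labelled library below every WT library, although WT replicate 1 and KO-labelled replicate 3 were almost level, and its log2 change of -1.06 ± 0.31 did not pass (edgeR adjusted p = 0.0787).

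**Figure D3:**
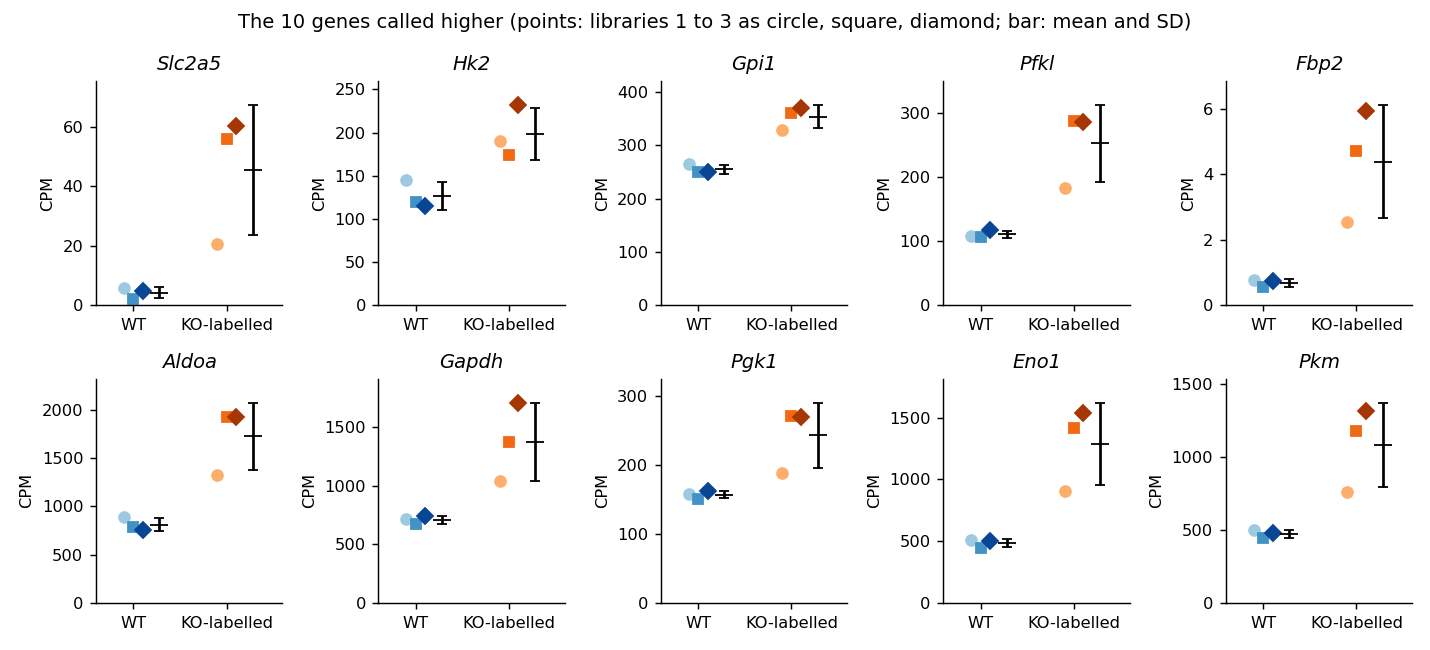
Each panel shows CPM (axis from 0) of 1 of the 10 called genes, with points for the 3 WT (blue) and 3 KO-labelled (orange) libraries and a bar for the mean and SD. In every panel the groups are apart, and the KO-labelled circle, replicate 1, is the lowest orange point in 9 of the 10, the exception being Hk2.

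Per kilobase of exon, the scale on which genes can be compared, Gapdh, Aldoa, Ldha, Eno1 and Pkm were the most abundant of the 30 in WT, at 474, 445, 333, 190 and 182 CPM per kilobase. Their order is uncertain, as counts of near-identical copies of Gapdh and Eno1 are not included. The Eno1 copy Eno1b alone was at 464 CPM per kilobase in WT. In the KO-labelled libraries these levels were 920, 945, 475, 506 and 417. Tpi1, Pgam1, Pfkfb3, Gpi1 and Pgk1 followed at 86.2 to 132 in WT. Slc2a5 ranked 25 of 30 in WT, at 1.33 CPM per kilobase. Its mean in the KO-labelled libraries was 14.4, above the means of Slc2a1 (8.77) and Slc2a3 (5.04) there. In the library labelled Hsp20 KO replicate 1, however, Slc2a5 was at 6.48 and Slc2a1 at 8.805. The 10 called genes therefore span the scale from Gapdh down to Fbp2, which ranked 27 of 30 in WT at 0.506.

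Over the 9 isozyme pairs, the within-library ratios of Slc2a1 to Slc2a3, Hk1 to Hk2, Pfkl to Pfkm, Pfkl to Pfkp, Aldoa to Aldoc and Slc16a1 to Slc16a3 did not overlap between the groups (exact permutation p = 0.1, adjusted 0.15). The log2 difference was -0.59 for Hk1 to Hk2, 0.69 for Pfkl to Pfkm and 0.62 for Slc16a1 to Slc16a3. Pfkfb1 to Pfkfb3 and Eno1 to Eno2 differed by -0.87 and 0.96, with overlap (exact permutation p = 0.2, adjusted 0.225).

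Some of these genes have near-identical copies with which reads can be shared, so their levels are uncertain. Eno1b, a copy 99.5% identical to Eno1 over 1736 bases, had 1.8 to 1.92 times as many counts as Eno1 in every library, and its own log2 change was 1.44 ± 0.19 (edgeR adjusted p = 0.00934). For Gapdh 7 copies in the table held 57.3% to 57.5% of the counts of Gapdh and copies together, Gm12070, 99.9% identical over 1002 bases, holding most of them. Aldoart1 had 0.0628 to 0.0658 counts per Aldoa count and Gm13315 0.00292 to 0.00459 per Ldha count over the 6 libraries. With the copies' counts added to their gene 11 genes of the pathway were called, Ldha joining the 10. Hk1, Hk3, Pfkm, Pfkp, Pfkfb1, Pfkfb2, Tpi1, Pklr and Slc16a3 overlap another gene of the table, and whether counting used strand was not given in the sources used here. None of the 10 called genes does.

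The calls depended on single WT libraries. Without WT replicate 2, edgeR's quasi-likelihood test called 0 of the 28 genes, where 0.488% of all tested genes were called higher, and at an unadjusted p under 0.05 it had 15 of the 28 and 1620 of all 16179 tested genes higher. Without WT replicate 3 it called 0, where 0.464% of all tested genes were called higher, with 14 of the 28 and 1509 of all 16159 higher at an unadjusted p under 0.05. Without the library labelled Hsp20 KO replicate 1, the one whose Hspb6 level goes against its label, 13 were called, where 5.82% of all were. Leaving out WT replicate 1 gave 8, where 2.0% of all were called higher, and leaving out the library labelled Hsp20 KO replicate 2 or 3 gave 7 each, where 2.0% and 2.01% were. The sizes of change moved little: over all settings the log2 change of Slc2a5 lay between 3.11 and 3.79, of Fbp2 between 2.40 and 2.95, of Eno1 between 1.27 and 1.61, of Pfkl between 1.08 and 1.38 and of Gpi1 between 0.44 and 0.52.

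The library labelled Hsp20 KO replicate 1 lay between the groups for most of the 10 genes. With WT at 0 and the mean of KO-labelled libraries 2 and 3 at 1, its position ran from 0.277 for Pgk1 to 0.838 for Hk2, with a median of 0.406. It was also the lowest KO-labelled library by the median and the sum of the markers of thermogenic fat. Elovl3 and Dio2, the latter named after its values were seen, were exceptions. In the KO-labelled libraries 1 to 3 Elovl3 had 6.58, 5.08 and 8.61 CPM and Dio2 3.94, 4.12 and 3.71 CPM. Their WT means were 0.197 and 1.78 CPM. Ucp1, which followed the list, had 2.64, 1.76 and 1.06 CPM in WT and 19.1, 165 and 308 CPM in the KO-labelled libraries. Its log2 change was 6.51 ± 1.03 SE (edgeR adjusted p = 0.016), above that of any gene of the pathway. The median of the 10 called genes was 0.70, 1.28 and 1.32 log2 units over WT in the KO-labelled libraries 1 to 3, and that of the 10 brown fat markers 1.52, 2.96 and 2.84 units. For Hspb6 itself the values were -0.20, -2.41 and -1.27. The brown fat list summed to between 102 and 149.5 CPM in WT and to 310.1, 907 and 1025 CPM in the KO-labelled libraries 1 to 3. Of its 10 genes 9 were called higher (3 without WT replicate 2 or 3, 4 with the replicate number as a block), where 4.23% of all tested genes were. None of the 10 was at 0 in all libraries. The part of a thermogenic fat cell population in the glycolytic values was not tested.

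**Figure D4:**
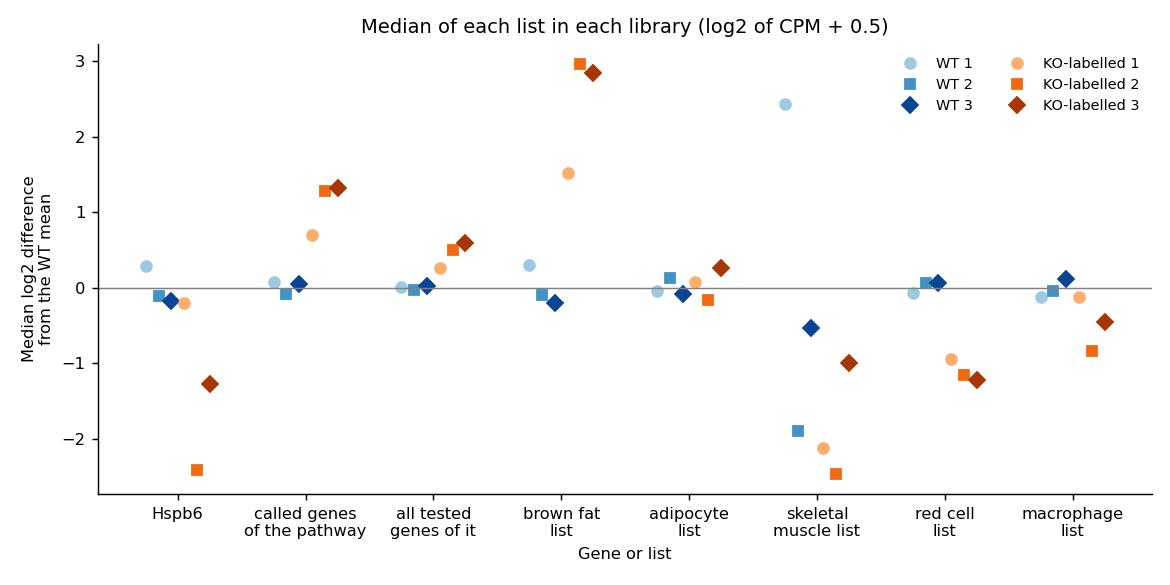
Points give each library's median difference from the WT mean (log2 of CPM + 0.5) for Hspb6, the 10 called genes, the 28 tested genes and 5 marker lists, with WT in blue and KO-labelled in orange. The called genes and the brown fat list are higher in all KO-labelled libraries and least so in replicate 1, the red cell list is lower in all, and WT replicate 1 stands apart for skeletal muscle.

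Apart from brown fat, edgeR called no marker of the cell types listed higher. Of 12 macrophage markers, from cells that use glycolysis, edgeR's test called 0 (with 7 lower and 0 higher at unadjusted p under 0.05), limma-voom 0 and DESeq2 5 lower. Their median log2 change was -0.47, with sums of 1850 to 2137 CPM in WT and 1488 to 1954 CPM in the KO-labelled libraries. Of 6 tested neutrophil markers 2 fell, Cxcr2 and Csf3r (1 without WT replicate 2, 0 without WT replicate 3), with sums of 81.6 to 90.4 and 47.7 to 56.3 CPM. Red cell markers fell, 6 of 9, where 3.42% of all tested genes were called lower. Their sums were 9023 to 10350 CPM in WT and 3987 to 4864 CPM in the KO-labelled libraries. Of these 6, Hba-a1 and Hba-a2 had nearly the same counts in every library, such as 118083 and 118081 in WT replicate 3. They are therefore not separate measurements, although both enter the count and the sum. Bpgm is also among the 6. Without WT replicate 2 or 3 edgeR called 3 red cell markers lower, and without the library labelled Hsp20 KO replicate 1 it called 7 macrophage markers lower. Adipocyte, endothelial, lymphocyte, mesothelial and epithelial, and Schwann and nerve markers had 0 called in either direction by edgeR or limma-voom. At an unadjusted p under 0.05 edgeR had 2 adipocyte, 1 lymphocyte and 1 Schwann and nerve marker higher and 2, 0 and 2 lower, with 1 endothelial marker lower and 0 mesothelial and epithelial ones. DESeq2 called 1 adipocyte marker and 1 Schwann and nerve marker in each direction and none of the other 3 lists. Some of these edgeR counts changed when 1 library was left out. Without the library labelled Hsp20 KO replicate 1, 2 adipocyte and 1 mesothelial and epithelial marker were called lower and 1 Schwann and nerve marker in each direction. Without the one labelled replicate 2, 4 lymphocyte markers were called lower, and without replicate 3, 1 was called higher. No list had a gene at 0 in all libraries. The part of these cell types in the values of the pathway was not tested.

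Around the pathway, 41 further genes were listed, of which 36 were tested, 8 were called higher and 1 lower, with a median log2 change of 0.23. Over all tested genes 4.23% were called higher and 3.42% lower. Without WT replicate 2 or 3 the count called higher was 1 or 2 and the count lower 0. Both subunits of the mitochondrial pyruvate carrier rose, Mpc1 from 143 ± 7.63 to 295 ± 61.5 CPM and Mpc2 from 76.7 ± 9.07 to 141 ± 17.5 CPM (SD, n = 3 each, edgeR adjusted p = 0.0126 and 0.0112). The glycerol phosphate shuttle rose at both ends. Gpd1, the cytosolic dehydrogenase that turns a glycolytic triose into glycerol 3-phosphate, had 799.5, 964 and 902 CPM in WT and 1724, 2274 and 2580 CPM in the KO-labelled libraries (log2 change 1.30, edgeR adjusted p = 0.0103). Gpd2, its mitochondrial partner, had 110.2, 67.3 and 79.3 CPM against 164, 262 and 276 CPM (log2 change 1.45, edgeR adjusted p = 0.0175). For both, all KO-labelled libraries lay above all WT libraries.

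Pdk1, a kinase that inhibits the pyruvate dehydrogenase complex, had 76.3, 68.8 and 67.1 CPM in WT and 112.5, 117 and 116 CPM in the KO-labelled libraries, the library labelled Hsp20 KO replicate 1 lying with the others of its group (log2 change 0.71 ± 0.08 SE, edgeR adjusted p = 0.00486). Pdk1 was called in each of 14 other settings, among them those without WT replicate 2 or 3. Ldhd, a mitochondrial dehydrogenase of D-lactate, rose from 29.4 ± 2.82 to 50.1 ± 7.44 CPM (edgeR adjusted p = 0.0173). The other called genes, named after their values were seen, were Pcx, the pyruvate carboxylase, Pdk2 and Bpgm. Pcx and Pdk2 rose. Bpgm, the bisphosphoglycerate mutase of red cells and itself on the red cell list, fell from 34.5 ± 1.33 to 24.9 ± 3.47 CPM. Slc2a4, the insulin-regulated glucose carrier GLUT4, had 170.3, 187.5 and 143 CPM in WT and 192, 226 and 235 CPM in the KO-labelled libraries. Its groups did not overlap and it was not called (log2 change 0.38 ± 0.12, edgeR adjusted p = 0.105). Khk, the fructokinase that acts on the sugar Slc2a5 carries, had 10.8 to 12.2 CPM in WT and 14.4 to 14.8 CPM in the KO-labelled libraries and was not called (edgeR adjusted p = 0.0914). It was named after its values were seen.

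**Figure D5:**
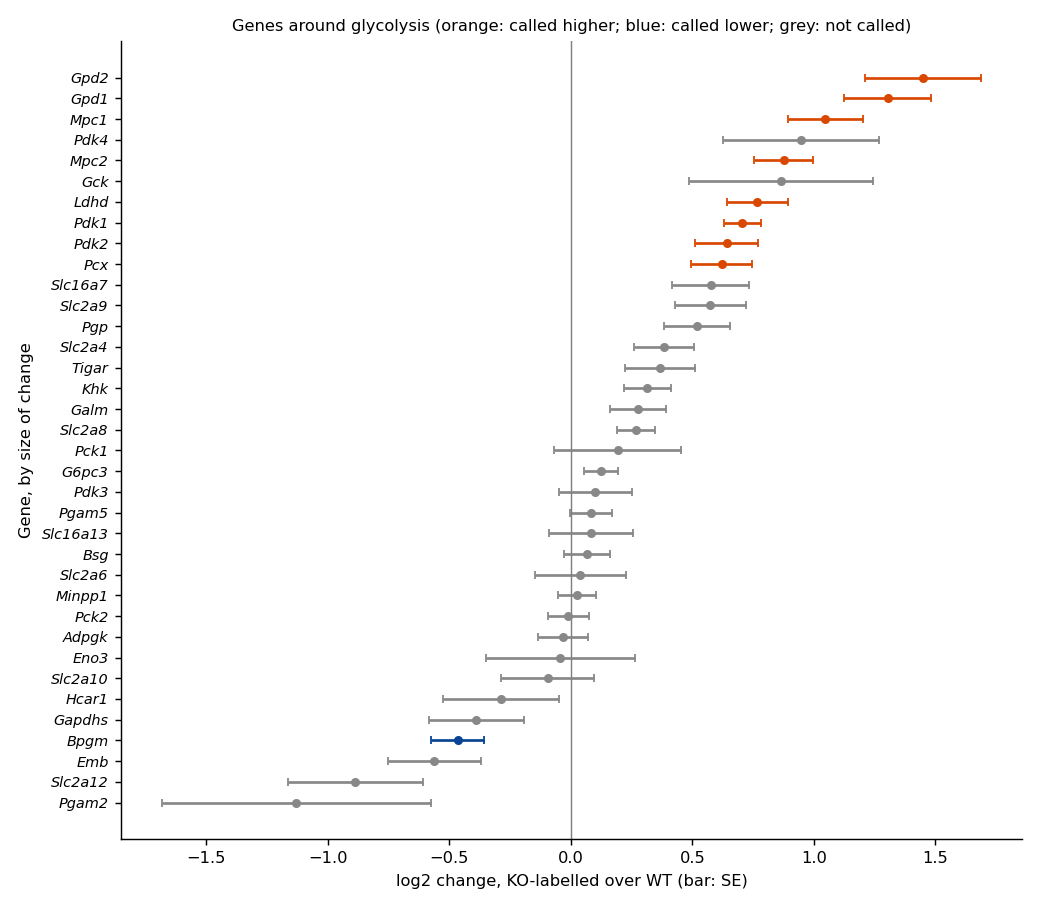
Points give the log2 change and its SE for the 36 tested genes around glycolysis, ordered by size of change (orange called higher, blue called lower, grey not called). Gpd2, Gpd1 and Mpc1 are the called genes farthest to the right, at 1.45, 1.30 and 1.05, and Bpgm is the 1 gene called lower.

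Among 30 regulators of the pathway 6 rose and 2 fell, with a median log2 change of 0.01 (1 and 2 without WT replicate 2, 1 and 1 without WT replicate 3). The shares over all tested genes were 4.23% called higher and 3.42% called lower. Mlxipl, which encodes ChREBP, the glucose-sensing activator of glycolytic and lipogenic genes, had 95.2, 87.3 and 76.4 CPM in WT and 121, 146 and 183 CPM in the KO-labelled libraries (log2 change 0.80 ± 0.16 SE, edgeR adjusted p = 0.0279). Txnip, a target of ChREBP that restrains glucose uptake, had a log2 change of -0.07 ± 0.15 and Hif1a, the oxygen-regulated activator of glycolysis, of -0.06 ± 0.09, neither called (edgeR adjusted p = 0.811 and 0.747). The estrogen-related receptors Esrra and Esrrg, activators of oxidative metabolism, rose from 42.8 ± 1.79 to 71.0 ± 8.57 CPM and from 1.24 ± 0.0348 to 4.98 ± 2.32 CPM. Of the clock genes on the list Dbp rose and Arntl and Clock fell, and Mxi1 and Nr1d1, named after their values were seen, also rose. The hour of tissue collection was not given in the sources used here.

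Targets of the hypoxia response, did not move in 1 direction. Of 15 tested genes 2 rose, Pdk1 and Mxi1, and 2 fell, P4ha2 and Ddit4 (log2 change -0.50 and -0.55, edgeR adjusted p = 0.0418 and 0.0477), with a median of -0.03. For comparison, 4.23% of all tested genes were called higher and 3.42% lower. Without WT replicate 2 or 3, 1 was called higher and 0 lower. Pdk1 is also on the list of genes around the pathway and Mxi1 on the list of regulators. The 2 rises are therefore counted on those lists as well. Their summed level was 1173 to 1411 CPM in WT and 1090 to 1212 CPM in the KO-labelled libraries.

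By position, on GRCm38 (RefSeq genes), Slc2a5 (chr4:150119344-150144168) and Eno1 (chr4:150236708-150248879), the genes with the largest and the third largest rise, lie 92.5 kb apart. Only Car6 and Slc2a7 lie between them, and neither passed the filter on low counts. Within 500 kb of Slc2a5, 4 of 9 tested genes were called, all higher, where 4.23% of all tested genes were called higher. They were Eno1, already among the 10, and, named after their values were seen, Rere (log2 change 0.36), Slc25a33 (0.76) and Tmem201 (0.36). Apart from Eno1, windows around the other called genes held fewer. They had 3 of 43 tested genes called higher around Gapdh, 2 of 52 around Aldoa, 0 of 10 around Pkm and 0 of 8 around Fbp2. The window of Eno1 overlaps that of Slc2a5 and held 4 of 7. Among the genes that were not called, 4 of 41 were called higher around Slc16a3 and 3 of 19 around Pgam1. Of the other called genes Hk2 lies at chr6:82725025-82774454, Gpi1 at chr7:34201327-34230336, Pfkl at chr10:77986947-78009807, Fbp2 at chr13:62836884-62858400, Aldoa at chr7:126795234-126800994, Gapdh at chr6:125161852-125166467, Pgk1 at chrX:106187100-106203699 and Pkm at chr9:59656576-59679372. Gpi1, Ldha and Aldoa share a chromosome with Hspb6, at 3662, 16295 and 96244 kb from it, so Gpi1 is the nearest of the 30 to Hspb6. Fbp1 and Fbp2 are neighbours 6.35 kb apart, and Fbp1 stayed at 0.229 CPM or less in every library while Fbp2 rose.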

How the data were processed

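Bulk RNA-seq of inguinal fat from 6 mice, 3 WT and 3 labelled Hsp20 KO, was used. The table the authors deposited holds raw whole-number counts per Entrez gene, 1 column per mouse, and columns were matched to samples through the labels. The submitters' processing notes name the builds GRCm38 and mm10 and the tools TopHat, DESeq, bcl2fastq and CASAVA 1.8, with no role. Which counter, gene models and strand option were used was not given in the sources used here. Gene IDs were matched to RefSeq symbols of GRCm38.p6 (24334 of 24415). The other 81 IDs took no part in the results on named genes.

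Counts were tested over the whole table with edgeR 4.0.16 in R 4.3.3 (filterByExpr by group with a minimum count of 10 and a minimum total of 15, TMM, quasi-likelihood F test, group as the only term, Benjamini-Hochberg adjustment over 15994 genes, threshold 0.05). The biological coefficient of variation was 14.8%. Each SE was derived from the log2 change and its F statistic. Levels per kilobase divide CPM by the union of GENCODE M21 exons. Isozyme ratios added 0.5 counts to each gene and used exact two-sided permutation tests in scipy 1.17.1. Copies were found with blastn 2.17.0 against GENCODE transcripts (at least 90% identity over 300 bases, over 10000 bases away). Promoter windows came from RefSeq. The scripts were tested on simulated data.

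The 30 genes and all lists were chosen with earlier results of these data known. Named were all 30 genes, Hspb6, up to 6 called genes of each other list by smallest p, and Slc2a4, Mlxipl, Txnip and Hif1a. Other genes are marked as chosen after seeing their values, with some exceptions. Those not marked are Adipoq and Plin1, neither of them called, the near-identical copies, and Car6 and Slc2a7. The settings varied were upper quartile scaling, DESeq2 size factors, no filter and a stricter filter (1 CPM), DESeq2 1.42.0, limma-voom (limma 3.58.1), robust dispersions, a replicate block, an adjusted p under 0.1, another prior for the ratios (5 counts), leaving out each library and, chosen after seeing the data, adding near-identical copies. Figures were drawn with matplotlib.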

Additional observations from a re-analysis of the deposited data

How the results depend on the processing

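Over the 15 other settings the 28 genes of the pathway gave 420 log2 changes with a test. Of these 348 kept their direction and their side of the threshold, 21 gained a call, 35 lost one and 16 changed sign, and no called gene changed sign. DESeq2 called 1136 genes higher and 1017 lower over the whole table and 1 gene of the pathway lower, and an adjusted p under 0.1 in edgeR called 1250, 1126 and 1. Leaving out 1 library gave between 75 and 941 genes higher, between 53 and 730 lower, between 0 and 13 of the pathway higher and between 0 and 1 lower.

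The titles do not say whether replicate numbers pair the samples. Deviations from the group mean were hardly correlated between libraries of the same number (-0.038, 0.0917 and -0.0957 for replicates 1 to 3). With 3 mice per group this cannot show whether there was a pairing. With the replicate number as a block edgeR called 226 genes higher and 169 lower and 4 genes of the pathway higher, Slc2a5, Pfkl, Fbp2 and Eno1, and the log2 change of Hk3 was -0.0612.

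Sign changes were seen in values that were not called. Leaving out 1 library put the log2 change of Slc2a1 between -0.0549 and 0.27, Hk1 between -0.00448 and 0.0969, Hk3 between -0.285 and 0.283, Pfkp between -0.112 and 0.102, Pfkfb1 between -0.197 and 0.0221, Pfkfb2 between -0.0894 and 0.0633, Aldoc between -0.202 and 0.303, Txnip between -0.158 and 0.0522 and Hif1a between -0.115 and 0.0103, and the difference in the log2 Ldha to Ldhb ratio between -0.197 and 0.036. Hk3 was -0.000213 with no filter and -0.0701 with limma-voom, and Pfkp 6.12e-05 with upper quartile scaling. Other scalings moved the median of all genes by at most 0.015. The lowest tested genes of the pathway rest on few counts per library, 17 to 103 for Fbp2, 12 to 43 for Aldoc and 34 to 178 for Slc16a3. The causes were not tested.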
